A study of Drosophila melanogaster with 4 samples.

Results

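HP1b regions on chromosome 4, the smallest autosome of Drosophila melanogaster, were taken as all rows assigned to that chromosome in each of 3 deposited lists of enriched regions, which were kept apart. They numbered 93 of 5248 regions (1.77%) in HP1b ChIP replicate 1, 86 of 4633 (1.86%) in replicate 2 and 168 of 9130 (1.84%) in the series-wide list. The libraries came from wild-type Oregon-R embryos collected at 14 to 16 h, fixed with formaldehyde. The study held 2 ChIP libraries made with the HP1b antibody Q4114 and 2 Input libraries of the same strain, age and genotype, each paired by number with a ChIP library. Region lists of the Input libraries were not analysed here, so no background measured the same way stands beside the values. The lists hold no counts, and the depth is unknown. Nothing in the labels shows that the replicates came from separate embryo collections; their spread may be technical. Whole embryos mix many cell types, and a region is an average over them.

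Proteins of the Heterochromatin Protein 1 family bind chromatin through a chromodomain and pair with one another and with partner proteins through a chromoshadow domain. HP1a, the founding member, is known for its binding to methylated lysine 9 of histone H3 in the heterochromatin around centromeres and on chromosome 4, while HP1b is found in both euchromatin and heterochromatin. Chromosome 4 is rich in repeats and carries heterochromatic marks along an arm that nonetheless holds many active genes. Its assembled sequence of 1351857 bp (FlyBase release 5, the build of all coordinates given here) starts at the centromeric end.

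HP1b regions were crowded on chromosome 4, most of all among regions with low scores and not among the strongest. Chromosome 4 had 68.8 regions per Mb in replicate 1 and 63.6 in replicate 2, against 41.2 and 36.9 per Mb on the 5 major arms together (X, 2L, 2R, 3L and 3R). The difference was 27.2 ± 0.679 regions per Mb (SD, n = 2), far above the spread between replicates, and no single major arm exceeded 47.9 per Mb in replicate 1 or 42.7 in replicate 2. With 2 replicates an exact two-sided sign test cannot go below p = 0.5, so comparisons with the major arms are given as values in both replicates without a test.

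Each list was divided by the authors' score, a value per region that the sources used here do not define, into 4 classes of equal size over the whole genome, with class 1 the lowest. In class 1 of replicate 1, chromosome 4 had 22.2 regions per Mb, against 10.3 on the major arms together and 5.71 to 12.7 on single arms. In class 1 of replicate 2 it had 25.2 per Mb, against 9.26 on the major arms and 4.24 to 11.8 on single arms. Of all chromosome 4 regions, 30 of 93 in replicate 1 and 34 of 86 in replicate 2 were in class 1. In class 2 it had 20.7 per Mb in both replicates, against 10.1 on the major arms in replicate 1 and 9.10 in replicate 2, and lay above every single arm (at most 13.6 and 10.6). In class 3 it had 17.0 per Mb in replicate 1, against 10.4 on the major arms and at most 14.1 on a single arm. In class 3 of replicate 2 it had 12.6 per Mb, against 9.26 on the major arms, but lay below X with 13.8. In class 4, the strongest regions, there was no excess. Chromosome 4 had 8.88 regions per Mb in class 4 of replicate 1, against 10.4 on the major arms and 8.56 to 14.4 on single arms. In class 4 of replicate 2 it had 5.18 per Mb, against 9.33 on the major arms, and lay below every single arm (7.66 to 14.1). In the highest-scoring 50% of each list, classes 3 and 4 together, chromosome 4 had 25.9 regions per Mb in replicate 1 and 17.8 in replicate 2, against 20.8 and 18.6 on the major arms. The difference of 2.13 ± 4.20 per Mb (SD, n = 2) had opposite signs in the replicates and was within their spread.

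**Figure D1:**
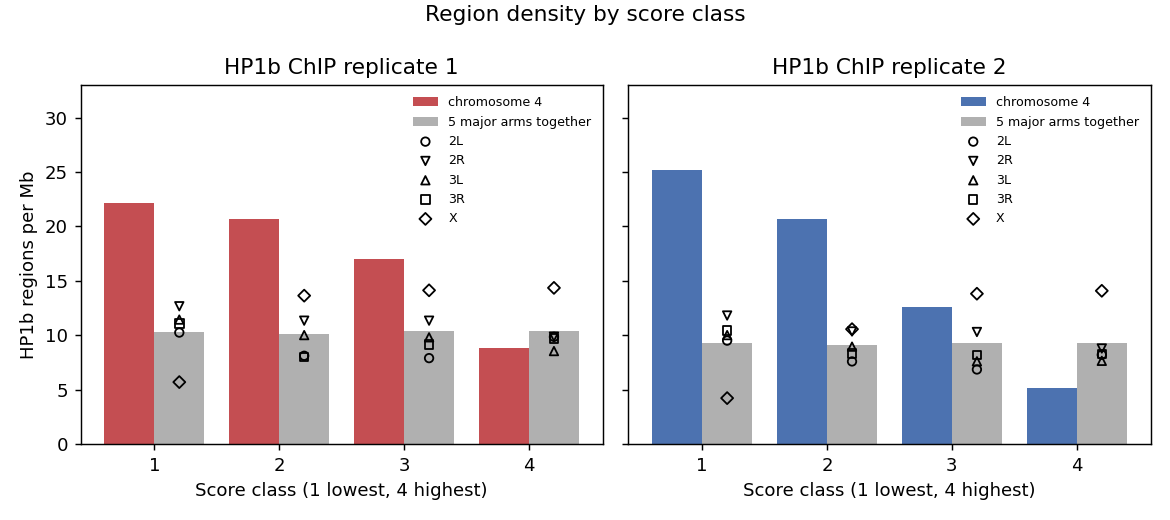
HP1b regions per Mb (vertical axis) in each of 4 score classes (horizontal axis, class 1 lowest) of replicate 1 (left) and replicate 2 (right), for chromosome 4 (coloured bars), the 5 major arms together (grey bars) and each major arm (symbols). Chromosome 4 reaches 22.2 and 25.2 per Mb in class 1 and stands at 8.88 and 5.18 per Mb in class 4.

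The few strong regions of chromosome 4 were wide by their median, with exceptions such as the strongest of replicate 2 (1507 bp). In class 4 their median width was 3897.5 bp in replicate 1 (12 regions) and 4257 bp in replicate 2 (7 regions), against 2659 bp and 2609 bp on the major arms. In class 1 the medians were close, with 1672.5 bp and 1637 bp on chromosome 4 against 1721 bp and 1703 bp on the major arms. Over all scores the replicates differed in direction. The median was 2254 bp on chromosome 4 against 2191 bp on the major arms in replicate 1, and 2020.5 bp against 2133 bp in replicate 2, a mean difference of -24.8 ± 124 bp (SD, n = 2) that was within the spread between replicates. The 75th percentile of width was 3464 bp on chromosome 4 against 2622.5 bp on the major arms in replicate 1, and 2480.5 bp against 2513 bp in replicate 2. Regions of at least 5 kb numbered 6 in replicate 1 and 4 in replicate 2. They were 6.45% and 4.65% of the chromosome 4 regions, against 2.94% and 2.07% on the major arms together. The highest single arm, X, came close with 5.50% and 3.55%. Width and score rose together across chromosome 4 regions, with a rank correlation (Spearman) of 0.671 in replicate 1 and 0.702 in replicate 2. This is a description over 93 and 86 regions of 1 library each. The correlation was higher on the major arms together (0.773 and 0.750) and on every single arm.

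Along the chromosome the regions came in dense stretches parted by nearly empty ones. Cover, the percent of bases in regions, was measured in 27 windows of 50 kb numbered from the centromeric end, leaving out the last 1857 bp. It ran from 0 to 44.4% with a median of 20.1% in replicate 1, and from 0 to 45.2% with a median of 12.4% in replicate 2. Replicate 1 was the higher in 23 of the 27 windows. The order of the windows was nonetheless close to the same in the replicates (Spearman rho 0.919, Pearson r 0.893, a description over 27 windows of the same chromosome). Of the 5 windows with the highest cover in replicate 1, 4 were among the 5 highest of replicate 2, and the 5 highest held 36.1% of the covered bases in replicate 1 and 41.6% in replicate 2.

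By the mean of the replicates, the densest window was the second, at 50001 to 100000, with 44.4% in replicate 1 and 39.2% in replicate 2 (41.8% ± 3.67, SD, n = 2). It was followed by the window at 200001 to 250000, with 35.5% and 45.2% (40.3% ± 6.82, SD, n = 2). The window at 450001 to 500000 came next, with 38.6% and 31.8% (35.2% ± 4.82, SD, n = 2). It held 8 regions in each replicate, the most of any window in replicate 1. In replicate 2 the window at 50001 to 100000 held as many. By the same mean, the emptiest windows stood at 750001 to 800000, with 1.53% and 0%, at 250001 to 300000, with 3.16% and 0%, and at the start of the chromosome, with 3.56% and 0%. Dense and empty windows were neighbours. The windows right after the densest and the next densest had 0.578% and 3.16% cover in replicate 1 and 7.07% and 0% in replicate 2. The window right before the one at 450001 to 500000 had no covered base in replicate 1 and 4.00% in replicate 2.

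**Figure D2:**
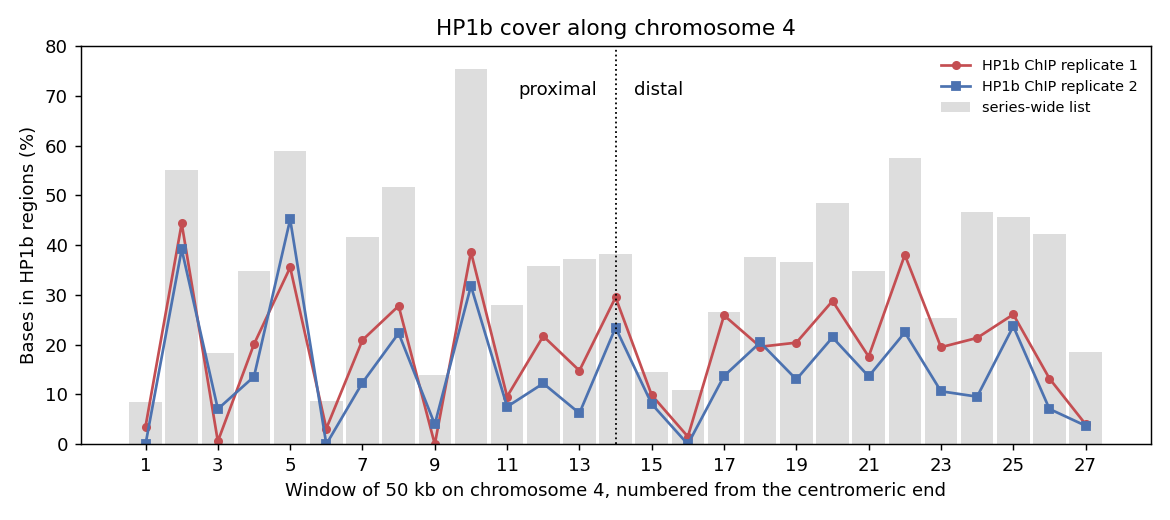
Percent of bases in HP1b regions (vertical axis) in 27 windows of 50 kb numbered from the centromeric end of chromosome 4 (horizontal axis), for replicate 1 (circles), replicate 2 (squares) and the series-wide list (grey bars). The dotted line marks window 14, left out between the proximal and distal parts; both replicates are high in windows 2, 5 and 10 and fall to 5% or less in windows 1, 6, 9, 16 and 27.

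The longest stretches without a region recurred in part. In replicate 1 the longest ran from 718995 to 799235 (80241 bp), and replicate 2 had its second longest there, from 718910 to 802342 (83433 bp). The second longest of replicate 1, from 235613 to 296793 (61181 bp), lay within the longest of replicate 2, from 235559 to 327069 (91511 bp). The third of replicate 1, from 90913 to 149711 (58799 bp), held replicate 2 regions over 6.18% of its length. The third of replicate 2, from 510736 to 577618 (66883 bp), held replicate 1 regions over 2.57% of its length. The longest empty stretch of the series-wide list, from 719161 to 779623 (60463 bp), lay within the shared one, followed by 91191 to 134777 (43587 bp) and 5225 to 41615 (36391 bp).

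The proximal and distal parts of chromosome 4, on either side of window 14, did not differ in mean cover beyond the spread between replicates. In replicate 1, cover was 18.5% in the proximal 13 windows and 18.9% in the distal 13. In replicate 2 it was 15.5% in the proximal and 12.9% in the distal windows. The means were 17.0% ± 2.13 proximally and 15.9% ± 4.26 distally (SD, n = 2 each), and the difference of 1.11 ± 2.13 percentage points had opposite signs in the replicates. Region numbers were also split, with 40 proximal and 47 distal regions in replicate 1 and 43 and 38 in replicate 2. Proximal windows were the more uneven in both replicates. Their SD was 15.0 percentage points in replicate 1 and 14.7 in replicate 2, against 10.05 and 7.43 for distal windows, and the highest proximal windows reached 44.4% and 45.2%, against 38.0% and 23.7% distally. Proximal regions scored a little higher in both replicates, with medians of 0.60 and 0.66 against 0.55 and 0.64 distally. The series-wide list did not share this, with a median of 0.414 proximally and 0.416 distally.

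Spacing on chromosome 4 was short. The median gap between neighbouring regions was 3767.5 bp in replicate 1 and 4544 bp in replicate 2, against 8560 bp and 9651.5 bp on the major arms, and lay below that of every single arm (the shortest, on X, was 6987 bp and 7385 bp). Gaps under 1 kb made up 23.9% of the gaps on chromosome 4 in replicate 1 (22 of 92) and 14.1% in replicate 2 (12 of 85), against 8.77% and 8.11% on the major arms. When regions parted by less than 1 kb were joined, 40 of 93 regions (43.0%) fell into 18 clusters of 2 or more in replicate 1, against 16.7% of regions on the major arms. In replicate 2, 24 of 86 regions (27.9%) fell into 12 clusters, against 15.6% on the major arms. Clusters held at most 3 regions in replicate 1 and 2 in replicate 2. The longest of replicate 1 ran from 799236 to 810648 and directly followed the longest empty stretch. A denser set of regions has shorter gaps, and the part of density in these values was not tested. Relative to the mean gap, the median gap was 0.326 and 0.362 on chromosome 4 against 0.392 and 0.391 on the major arms. In replicate 1 this was below every single arm (lowest 0.358, on 3R), but in replicate 2 it was above X (0.353).

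**Figure D3:**
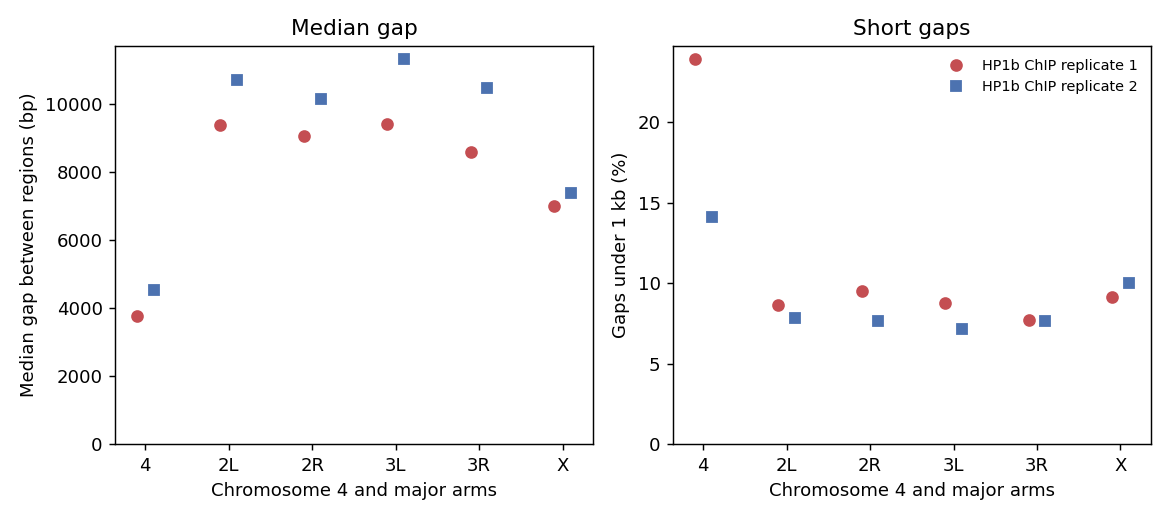
Median gap between neighbouring HP1b regions in bp (left) and percent of gaps under 1 kb (right) on chromosome 4 and the 5 major arms, for replicate 1 (circles) and replicate 2 (squares). Chromosome 4 has the shortest median gaps (3767.5 and 4544 bp) and the largest share of short gaps (23.9% and 14.1%).

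Most chromosome 4 regions were found again in the other replicate, but the replicates shared fewer of their bases there than on the major arms. Of the 93 replicate 1 regions, 70 (75.3%, 95% Wilson interval 65.6 to 82.9%) shared 1 bp or more with a region of replicate 2, against 74.5% of all replicate 1 regions. Of the 86 replicate 2 regions, 76 (88.4%, interval 79.9 to 93.6%) shared 1 bp or more with a region of replicate 1, against 85.9% of all replicate 2 regions. Both whole-list shares lay within the intervals. When both lists were cut to their highest-scoring 50%, a partner below the cut no longer counted, and the shares on chromosome 4 were lower. There 16 of 35 replicate 1 regions (45.7%, interval 30.5 to 61.8%) were found again. The share over the whole list, 74.7%, lay above the interval. Of the 35, only those ranked 28, 32 and 33 by score on chromosome 4 overlapped no region of the full replicate 2 list. Of 24 replicate 2 regions, 17 (70.8%, interval 50.8 to 85.1%) were found again, against 85.4% over the whole list, just above the interval. All 24 overlapped a region of the full replicate 1 list, as the strongest without a partner ranked 26. The lower shares therefore depend on the cut and do not show that strong regions were found again less often. The intervals cover counting error only and treat regions as independent. The replicates shared 153205 of 300946 covered bases on chromosome 4, a Jaccard index of 0.509, against 0.658 on the major arms together and 0.637 to 0.687 on single arms. Replicate 1 regions that were not found again had a median score of 0.51 and a median width of 1779 bp, against 0.63 and 2544.5 bp for those that were. The 10 replicate 2 regions without a partner had medians of 0.59 and 1549.5 bp, against 0.66 and 2100.5 bp. The strongest without a partner lay at 816916 to 818336 in replicate 1 (score 0.77) and at 469039 to 470895 in replicate 2 (score 0.72).

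Some regions were split in the other replicate. In replicate 1, 8 regions overlapped 2 replicate 2 regions and 2 overlapped 3, while 6 replicate 2 regions each overlapped 2 of replicate 1. The other 52 pairs were 1 region in each replicate. In these the starts differed by a median of 253.5 bp and the ends by 339.5 bp. Replicate 1 was the wider in 36 of the 52, and the replicate 2 region lay wholly inside it in 23. The correlation of their scores was 0.595 by rank (Spearman) and 0.654 by Pearson's r, a description over pairs on 1 chromosome. Replicate 1 scored higher in 26 of the 52.

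The strongest replicate 1 region, at 807218 to 810648 (score 1.63), overlapped the replicate 2 region at 806587 to 810396, which scored 0.89 and ranked 8 on chromosome 4. The strongest replicate 2 region, at 1262246 to 1263752 (score 1.29), overlapped by only 211 bp a weak replicate 1 region at 1263542 to 1264935 (score 0.52, rank 63). Other strong regions had close extents in both replicates. The region at 978297 to 983081 in replicate 1 (score 1.54) and at 978526 to 983310 in replicate 2 (score 1.09) had a width of 4785 bp in both. The widest replicate 1 region, at 1046888 to 1054779 (7892 bp, score 1.28), contained the second widest of replicate 2, at 1047180 to 1053288 (6109 bp, score 1.10). The widest replicate 2 region, at 218307 to 224859 (6553 bp, score 0.72), shared 1740 bp with a replicate 1 region at 223120 to 225206.

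**Figure D4:**
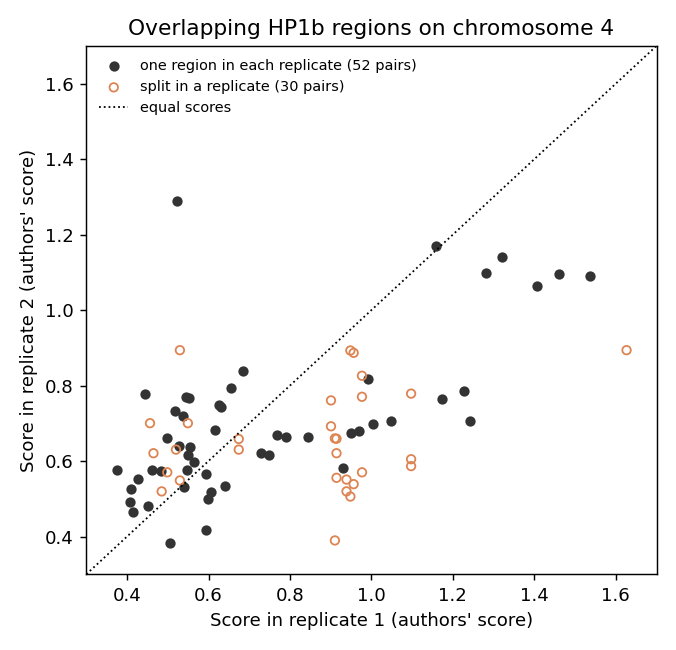
Authors' score in replicate 2 (vertical axis) against replicate 1 (horizontal axis) for overlapping HP1b regions on chromosome 4. Filled points are the 52 pairs of 1 region each, open points are pairs in which a region of 1 replicate overlaps several of the other, and the point at 0.52 and 1.29 is the strongest replicate 2 region.

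Some series-wide regions on chromosome 4 overlapped several neighbouring regions of the same replicate and are called merged. The sources used here do not state how the series-wide list was made. Merged, joined and bridged therefore describe overlap alone. Of the 86 series-wide regions that overlapped any replicate region, 17 (19.8%, 95% Wilson interval 12.7 to 29.4%) held 2 or more regions of the same replicate, against 4.74% over the whole list, 4.45% on the major arms together and 3.23 to 6.10% on single arms. Replicate regions were also denser and short gaps more common on chromosome 4, and the part of density in this share was not tested. In the highest-scoring 50% of each list, 2 of 39 on chromosome 4 (5.13%, interval 1.42 to 16.9%) were merged. The shares were 2.58% over the whole list and 2.48% on the major arms, both within the interval. This cut also drops weaker replicate regions, so it cannot show whether strong series-wide regions were merged less often. Of the 17, only that at 137230 to 142758 (score 0.36) lay below the series-wide cut, at 0.458. Without that limit, the 17 lay in 13 of the 27 windows, 7 in the proximal part, 9 in the distal part and 1 in window 14. They had a median width of 7277 bp (3861 to 12497 bp) and made up 28.1% of all series-wide bases on the chromosome. The 48 series-wide regions with exactly 1 region of each replicate had a median width of 3281 bp. Of the 22 series-wide regions of at least 5 kb, 16 were merged in this way. A merged region must span the gap between the replicate regions it overlaps, so its greater width follows in part from the definition. Of the 17, 9 held several regions of both replicates, 3 several of replicate 1 only and 5 several of replicate 2 only.

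The series-wide list bridged 13 of the 92 gaps of replicate 1, from 66 to 4407 bp with a median of 543 bp. It bridged 17 of the 85 gaps of replicate 2, from 25 to 3825 bp with a median of 996 bp. Of the 17 bridged gaps of replicate 2, 12 were wholly covered by replicate 1 regions. Of the 13 bridged gaps of replicate 1, 5 were wholly covered by replicate 2 regions and 5 not at all. A short gap was not enough to be bridged. Of those under 1 kb, 9 of 22 in replicate 1 and 9 of 12 in replicate 2 were bridged. No share for the major arms stands beside these counts, so they do not show whether bridging was particular to chromosome 4.

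Up to 5 replicate regions lay in 1 series-wide region. The region at 68558 to 78822 (10265 bp) joined 2 regions of replicate 1 and 3 of replicate 2, which together filled 91.8% of it. The next one towards the centromere, at 60264 to 68398 (8135 bp), held 1 region of replicate 1 and 3 of replicate 2 and was filled to 92.5%. These 2 stood 159 bp apart in the densest window. The region at 326304 to 337440 (11137 bp) joined 2 and 3 regions and was filled to 99.4%, although replicate 2 alone filled 54.8%. The region at 670222 to 678936 (8715 bp) joined 3 and 2 regions and was filled to 90.2%. The widest, at 195858 to 208354 (12497 bp), joined 2 regions of each replicate but was filled to only 59.4%, its first 3276 bp lying in no region of either replicate. The regions at 474634 to 486104 (11471 bp) and 972138 to 983304 (11167 bp), also with 2 regions of each replicate, were filled to 66.7% and 74.9%.

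**Figure D5:**
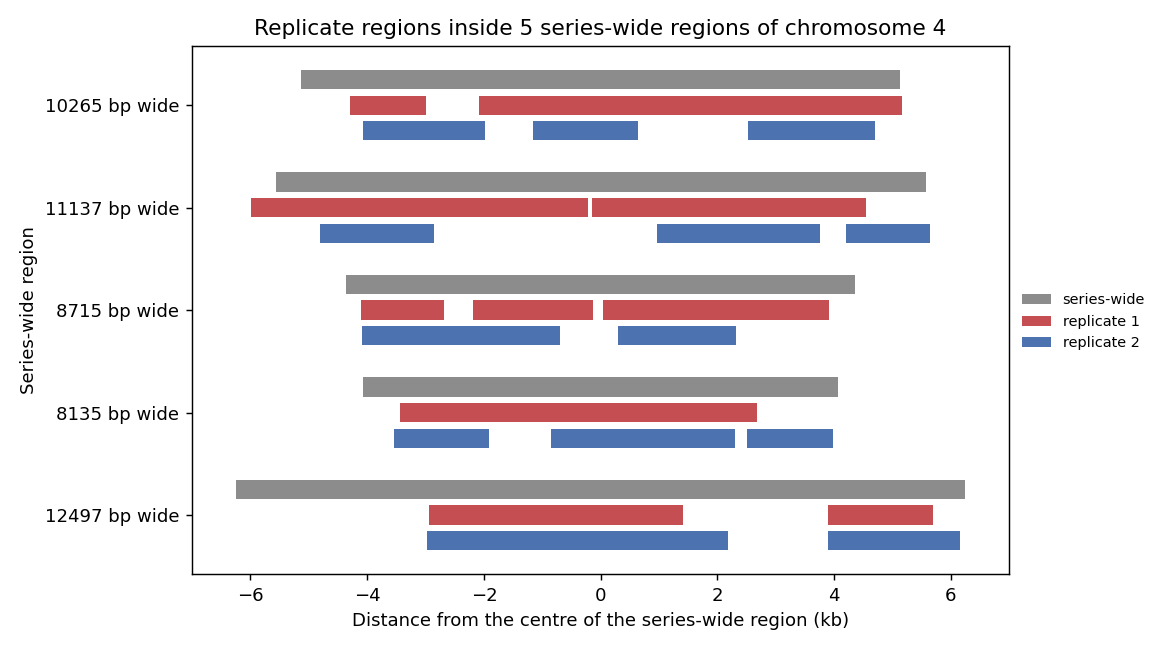
Series-wide regions of chromosome 4 (grey), namely the 3 with 5 replicate regions and, of the 7 with 4, the 2 nearest the centromeric end, and the regions of replicate 1 and replicate 2 that overlap them, by distance from the centre of the series-wide region in kb (horizontal axis). The replicate regions fill 59.4% to 99.4% of the series-wide region.

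Most series-wide bases on chromosome 4 that lay in no replicate region were in series-wide regions that overlapped neither replicate. Of the 168 series-wide regions there, 64 (38.1%) overlapped both replicates, against 41.9% over the whole list. Another 17 (10.1%) overlapped replicate 1 alone, against 13.8%, and 5 (2.98%) replicate 2 alone, against 6.14%. The other 82 (48.8%, 95% Wilson interval 41.4 to 56.3%) overlapped neither, against 38.1% over the whole list and 30.6 to 35.7% on single major arms. They were narrow (median 1339 bp, 36 of them under 1301 bp, the narrowest replicate region) and weak (median score 0.37, against 0.56 for those in both replicates), and divided into 42 proximal, 39 distal and 1 in window 14. In bases, 180417 of the 475440 on chromosome 4 (37.9%) lay in no replicate region, against 28.9% on the major arms; set against replicate 2 alone the share was 59.1%. Of the 180417 bases, 119384 were in the 82 regions and 61033 at the edges and inside of regions that overlapped a replicate. Conversely, 1 replicate 2 region, at 907370 to 908719, and no replicate 1 region lay wholly outside the series-wide list.

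The strongest series-wide regions were, with exceptions, those of both replicates. The region at 463362 to 467826 (score 1.22) matched a replicate 1 region of score 1.46 and a replicate 2 region of 1.09. The region at 86620 to 91190 (1.20) matched scores of 1.41 and 1.06, the one at 149736 to 153116 (1.18) scores of 1.32 and 1.14, and the one at 1045640 to 1055056 (1.03) scores of 1.28 and 1.10. The region at 1143100 to 1145676 (0.96) matched 1.23 and 0.79. The exceptions were strong series-wide regions with little behind them in the replicates. The region at 1296108 to 1297832 (score 1.12) ranked 4 of the 168 and overlapped no replicate region, and the next of this kind, at 452792 to 453974, scored 0.78 and ranked 17. In replicate 1 alone the strongest was at 816476 to 817570 (score 0.91, rank 8), followed by 2022 to 5224 (0.78), the region nearest the centromeric end. In replicate 2 alone the strongest were at 435246 to 437834 (0.51) and 468482 to 471094 (0.44).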

How the data were processed

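Per the submitters' processing notes, reads were mapped with Bowtie 0.12.7, and per the file headers the coordinates are on FlyBase release 5. The sources used here do not state the region caller, its threshold, how reads with several matches were handled or how the series-wide list was made. The deposited lists give a start, an end and 1 score per region, set by the authors. Series-wide starts are all even numbers (100%), against 50.2% in replicate 1 and 50.1% in replicate 2. No genome or annotation of release 5 was used, so regions are given by position, without genes or sequence.

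Samples were grouped by title. Overlap needed 1 bp; cover, gaps, widths, windows and overlaps were computed in Python 3.11.15 (scipy 1.17.1, pandas 2.3.3, numpy 2.4.6), drawn with matplotlib 3.10.9, and checked on simulated regions. Named regions were the strongest and widest of each list, the most merged, the strongest of each overlap class, the 3 longest gaps and the 3 densest and emptiest windows. The members, measures and rule were chosen with earlier results of these data known; the score classes, clusters and gap bridging were added after the values were seen, as were the named regions without a partner, outside the series-wide list or of equal width in both replicates and the longest cluster. Alternatives are in the closing section.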

Additional observations from a re-analysis of the deposited data

How the results depend on the processing

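Of 36 alternative values, 19 stayed within the spread between replicates or the 95% interval, 11 moved and 6 changed sign; the cause was not tested. The proximal minus distal difference in cover (1.11 percentage points) was -0.809 between the first and last 9 windows and ran from -0.394 (without replicate 2) to 2.61 (without replicate 1); in regions per Mb it was -1.54. The excess of regions per Mb on chromosome 4 (27.2) was 2.13 with the highest-scoring 50% of each list, 57.2 in the series-wide list and 16.4 for series-wide regions in both replicates. The difference in median width (-24.8 bp) ran from -112.5 bp (without replicate 1) to 63.0 bp (without replicate 2), and was 577 bp with the highest-scoring 50% and 1126 bp for series-wide regions in both. The share of replicate 1 regions found again (75.3%) was 54.8% when the overlap had to be 50% of both regions. It was 45.7% with both lists cut to the highest-scoring 50%. For replicate 2 (88.4%) these were 59.3% and 70.8%. No share over the whole list stands beside the values at 50% overlap, so they do not show whether the drop was particular to chromosome 4. The share of merged series-wide regions (19.8%) was 5.13% with every list cut to the highest-scoring 50%, and 14.8% to 20.3% with 1 replicate. Series-wide bases outside the replicates (37.9%) were 46.6% (without replicate 2) to 59.1% (without replicate 1), 17.1% in regions that overlapped a replicate and 21.5% among the highest-scoring 50%. Leaving out the first and last window, chosen after seeing the data, gave 1.38 points. No paired analysis was possible because no lists of regions were analysed for the Input libraries. Unknown depth, 2 replicates and an undefined score limit all comparisons.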
